A study of Homo sapiens with 6 samples.

Results

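The 37 imprinted genes examined here were the rows of the deposited count table whose symbol was on a list of human imprinted genes from 19 chromosomal clusters, out of 61155 symbols counted. After a filter on low counts, 27 of the 37 members were tested among 19521 genes, and these 27 came from 16 clusters. The other 10 members had at most 3 counts in any library.

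The libraries were bulk poly(A) RNA sequencing of undifferentiated H7 hESCs, an established line of human embryonic stem cells grown without feeders on Matrigel in TeSR-E8 medium. There were 3 wild type libraries (WT) and 3 libraries of S6K1-/- cells, in which CRISPR/Cas9 guides against a pair of exons had cut RPS6KB1, the gene of the mTOR-dependent kinase S6K1. Both groups were otherwise the same line and culture, and the comparison addressed which transcripts S6K1 loss altered before any differentiation. The sample labels also carry the entries week 5 and knockdown and name another plasmid than the methods, whereas the treatment label and the methods describe undifferentiated knockout cells. The treatment protocol in the labels also ends with a step of dexamethasone and isobutylmethylxanthine, which the methods do not give for these cells. All S6K1-/- libraries came from clone #1, so the genotype and the clone cannot be told apart. Nothing in the labels says whether the libraries of a group were separate cultures, and p-values then measure only the spread between these libraries, which may be technical.

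An imprinted gene is transcribed mainly from the allele inherited from a given parent. The choice is set by DNA methylation that differs between egg and sperm at imprinting control regions, and it is maintained after fertilisation by DNMT1 and by KRAB zinc finger proteins such as ZFP57 and ZNF445 with their cofactor TRIM28. Many imprinted genes act in fetal growth, placenta and brain, and cultured human pluripotent stem cells are known for gain or loss of parental marks at some clusters. Counts per gene do not separate the parental alleles or the isoforms of a gene, so every value below is a total over both alleles and all isoforms.

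The largest member change with ample counts was at INPP5F, which encodes a phosphoinositide phosphatase and has an imprinted transcript from a start site inside the gene. INPP5F lies at chr10:119726042-119829147 on the plus strand of GRCh38, in GENCODE 44 with 21 transcripts. RefSeq gives it 2 start sites that are 92.8 kb apart. The first is 446 bases after the start of the canonical GENCODE transcript, in the intron that follows its first exon, and the internal one lies in intron 15 of this transcript of 20 exons. Their 300 base windows (250 bases before and 50 after the RefSeq start, GRCh38.p14, plus strand) are shown because the counts of INPP5F pool transcripts from these starts. They also pool those from the canonical GENCODE start, which lies outside the first window. Capitals mark CpG dinucleotides, the sites that imprinting methylation acts on.
INPP5F first start, chr10:119726246-119726545: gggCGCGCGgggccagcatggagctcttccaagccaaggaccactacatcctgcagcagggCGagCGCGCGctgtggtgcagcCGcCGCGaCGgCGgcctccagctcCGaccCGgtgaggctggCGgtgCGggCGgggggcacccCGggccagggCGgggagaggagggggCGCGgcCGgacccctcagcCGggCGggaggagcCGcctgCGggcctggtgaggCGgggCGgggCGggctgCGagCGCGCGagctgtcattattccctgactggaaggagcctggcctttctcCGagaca
INPP5F internal start, chr10:119819019-119819318: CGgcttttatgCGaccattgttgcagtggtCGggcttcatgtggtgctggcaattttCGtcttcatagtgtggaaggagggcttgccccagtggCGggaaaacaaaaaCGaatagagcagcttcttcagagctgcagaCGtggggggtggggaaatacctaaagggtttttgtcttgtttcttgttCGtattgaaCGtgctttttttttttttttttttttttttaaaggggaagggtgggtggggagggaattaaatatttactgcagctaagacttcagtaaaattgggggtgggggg

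The first window held 34 CpG and 75.7% G and C, and the internal window held 9 CpG and 45.7% G and C, against a median of 14 CpG over the 35116 promoter windows of the RefSeq table. Neither INPP5F window held TGCCGC, the hexanucleotide bound by ZFP57 when its CpG is methylated, on either strand. For contrast, the window of the start that SNRPN and SNURF share, which lies in the imprinting control region of the Prader-Willi locus, held it once on each strand. Capitals below mark TGCCGC and its reverse complement GCGGCA.
SNRPN and SNURF shared start, chr15:24954737-24955036, plus strand: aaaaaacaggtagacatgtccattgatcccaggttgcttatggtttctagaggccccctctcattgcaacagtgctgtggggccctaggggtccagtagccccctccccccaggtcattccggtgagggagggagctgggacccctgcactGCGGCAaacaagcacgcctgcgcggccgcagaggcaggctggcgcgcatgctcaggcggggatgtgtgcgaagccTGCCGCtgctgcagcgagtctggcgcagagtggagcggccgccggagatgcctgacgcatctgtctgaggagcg

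An entry in the RefSeq table was present for 22 members, with 51 windows, several of which overlap within a gene. The window that SNRPN and SNURF share, which held TGCCGC, is counted for each of these genes. TGCCGC or its reverse complement was present in 22 of the 51 windows, and in 16.7% of all promoter windows. These matches describe the letters of the windows only.

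Library totals ranged from 21896698 to 24473013 counts. The targeted gene, RPS6KB1, had 831, 791 and 777 counts in WT and 464, 464 and 438 in S6K1-/-, a log2 fold change of -0.75 (SE 0.057, adjusted p = 2.52e-07). Pluripotency markers were present in all libraries, at a summed 6940 to 7116 CPM (counts scaled to the same library size) in WT and 6561 to 6610 CPM in S6K1-/-, and of 12 tested 1 was higher (PRDM14) and 1 lower (DNMT3B), or 2 and 3 at 0.05. The log2 fold changes were -0.04 for POU5F1, 0.05 for NANOG and -0.04 for SOX2. The summed mesenchyme markers were lower in S6K1-/- (155 to 161 CPM against 73.5 to 76.4 CPM, with 4 of 6 tested markers lower). Most of this sum was COL1A1 (means of 80.2 CPM in WT and 23.2 in S6K1-/-) and COL1A2 (60.4 and 42.6 CPM). COL3A1, LUM, DCN, TWIST1 and PRRX1 had at most 3 counts in any library, and PDGFRA had a log2 fold change of 0.17 (adjusted p = 0.633). In the summed endoderm markers the ranges were 8.39 to 10.9 CPM in WT and 4.36 to 5.49 CPM in S6K1-/-, with 0 of 4 called (2 lower at 0.05, and 3 without overlap), and in trophoblast and amnion markers 20.9 to 22.6 CPM and 17.8 to 20 CPM, with 0 of 3 called (1 lower at 0.05). Neuroectoderm markers summed to 46.5 to 48.3 CPM and 46.8 to 51.2 CPM, with 1 of 5 higher and 1 lower, or 2 and 2 at 0.05. SIX3 was the largest part of this sum, at means of 27.8 and 30.7 CPM. Over all genes tested 1.42% were higher and 2.54% lower at an adjusted p under 0.001, and 5.47% and 8.31% at 0.05. Among all genes 16.7% were lower without overlap. The part of these marker shifts in the values of the imprinted genes was not tested, and in bulk RNA fewer cells of a type and less RNA per cell cannot be told apart.

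The members differed widely in level. Per kilobase of exon in WT, PEG10 had the highest mean at 66.1 CPM per kb, followed by MEST at 49.0, NNAT at 44.2, GNAS at 29.9, NDN at 16.6, INPP5F at 15.7 and GRB10 at 12.7 CPM per kb. SGCE, which shares a promoter region with PEG10, was at 1.78 CPM per kb. With the longest transcript as length in place of all exons, GNAS (90.7 CPM per kb) and MEST (88.3) were above PEG10 (66.8), so PEG10 was the highest only on the first scale. On this scale the ratio of PEG10 to SGCE per kb was 11.3 and that of INPP5F to GNAS 0.243. At least 1000 counts were present in every library for 10 members.

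**Figure D1:**
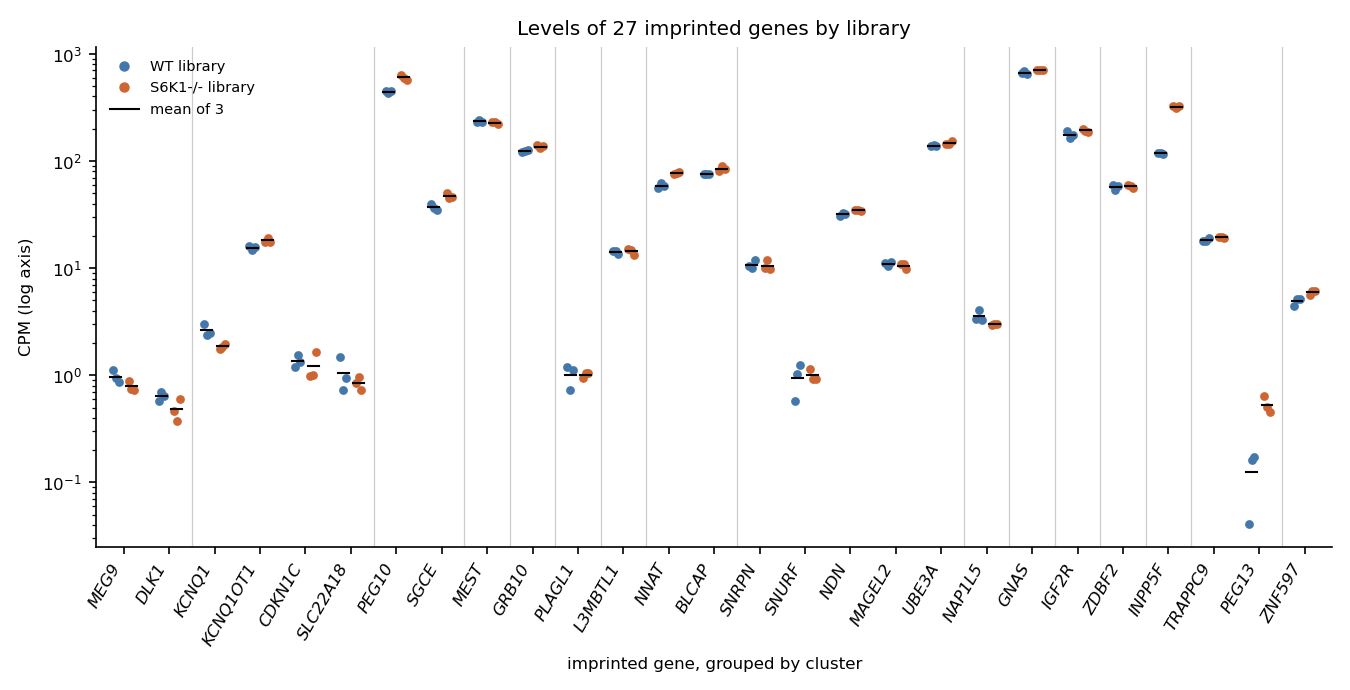
CPM (log axis) of the 27 tested imprinted genes in each of the 3 WT and 3 S6K1-/- libraries, with the mean of 3 as a bar and grey lines between clusters. INPP5F is separated most clearly, at 117 to 118 CPM in WT and 315 to 327 CPM in S6K1-/-, while most other members lie at similar heights in both groups.

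Of the 27 members tested with edgeR's quasi-likelihood test, 4 were higher in S6K1-/- at a Benjamini-Hochberg adjusted p under 0.001 (INPP5F, PEG10, NNAT and SGCE, in 3 clusters), where 1.42% of all genes tested were higher. None was lower, where 2.54% of all genes were. KCNQ1 had the lowest log2 fold change (-0.51, adjusted p = 0.0542), and DESeq2 also called 0 members lower. At an adjusted p under 0.05 the members called were 8 higher and 0 lower, against 5.47% and 8.31% of all genes. Among genes with at least 100 counts in every library, 4 of 18 members were higher and 0 lower, against 1.66% higher and 2.29% lower over the 12334 such genes. The 3 libraries of each group did not overlap in 12 members that were higher and 2 that were lower, against 14% and 16.7% of all genes. The median log2 fold change over the 27 members was 0.08, beside -0.00 over all genes, with a range from -0.51 to 2.05, and 13 members lay within 0.15 of 0. These figures include PEG13, which passed the filter only through its counts in S6K1-/- and so had to differ. Without PEG13, 7 of 26 members were higher at 0.05, 11 did not overlap and were higher, and the largest log2 fold change was 1.45.

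Taken by the allele that is usually expressed, 3 of 15 tested paternally expressed members rose (PEG10, NNAT and SGCE, the last just past the threshold) and 1 of 4 with isoform-dependent imprinting rose (INPP5F), where 1.42% of all genes did. Of 5 tested maternally expressed members 0 passed the threshold in either direction, and these had at most 147 counts in any library, whereas the called members had at least 813. A difference between the allele classes was not tested. All members together took 0.227%, 0.226% and 0.224% of the counts in WT and 0.274%, 0.27% and 0.267% in S6K1-/-. Their summed level was 2245 CPM in WT and 2728 CPM in S6K1-/-, a difference of 484 CPM or 21.5%. Without INPP5F the difference was 279 CPM, and without INPP5F and PEG10 it was 119 CPM or 7.05%.

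**Figure D2:**
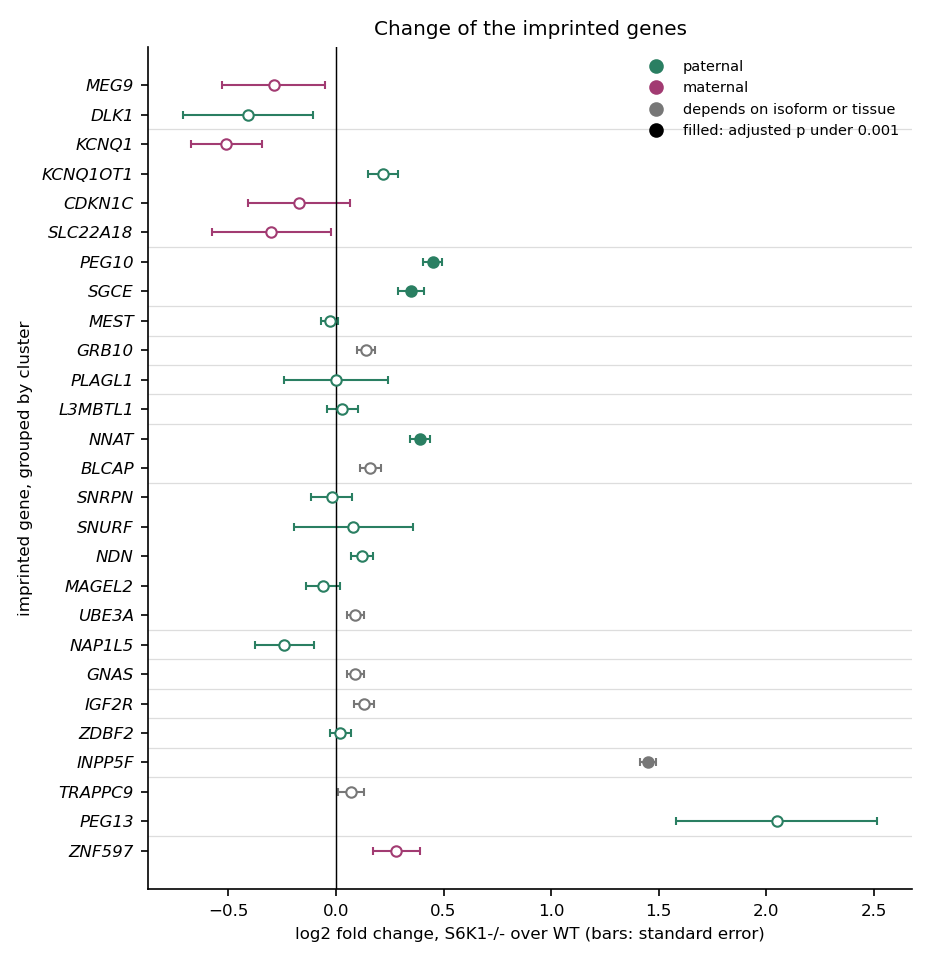
Log2 fold change of S6K1-/- over WT for the 27 tested imprinted genes in the order of their clusters, with bars of 1 standard error, colours for the allele usually expressed and filled points for an adjusted p under 0.001. INPP5F (1.45), PEG10 (0.45), NNAT (0.39) and SGCE (0.35) are filled, and PEG13 (2.05) carries the widest bar.

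INPP5F had 2872, 2897 and 2708 counts in WT and 7682, 7537 and 7041 in S6K1-/-. Every S6K1-/- library was thus above every WT library by a wide margin, and the spread within each group was small. The mean was 117 ± 0.769 CPM in WT and 322 ± 6.34 CPM in S6K1-/- (SD, n = 3), a 2.74-fold rise (log2 fold change 1.45, SE 0.0385, adjusted p = 1.8e-12 with edgeR's quasi-likelihood test). Among the 12334 genes with at least 100 counts in every library, 7 had a larger log2 fold change and 1 had a smaller p. Of the exonic bases of INPP5F, 47% lie after the internal start, and 4 protein-coding GENCODE transcripts begin within 500 bases of it. Which start site the additional reads came from cannot be read from counts per gene.

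The genes around INPP5F did not pass the test. Within 250 kb, 5 other genes were tested, with log2 fold changes of 0.00 for RGS10, 0.05 for BAG3, 0.06 for MCMBP, 0.07 for TIAL1 and 0.07 for SEC23IP. RGS10 regulates G protein signalling, BAG3 is a co-chaperone, and TIAL1 binds RNA.

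**Figure D3:**
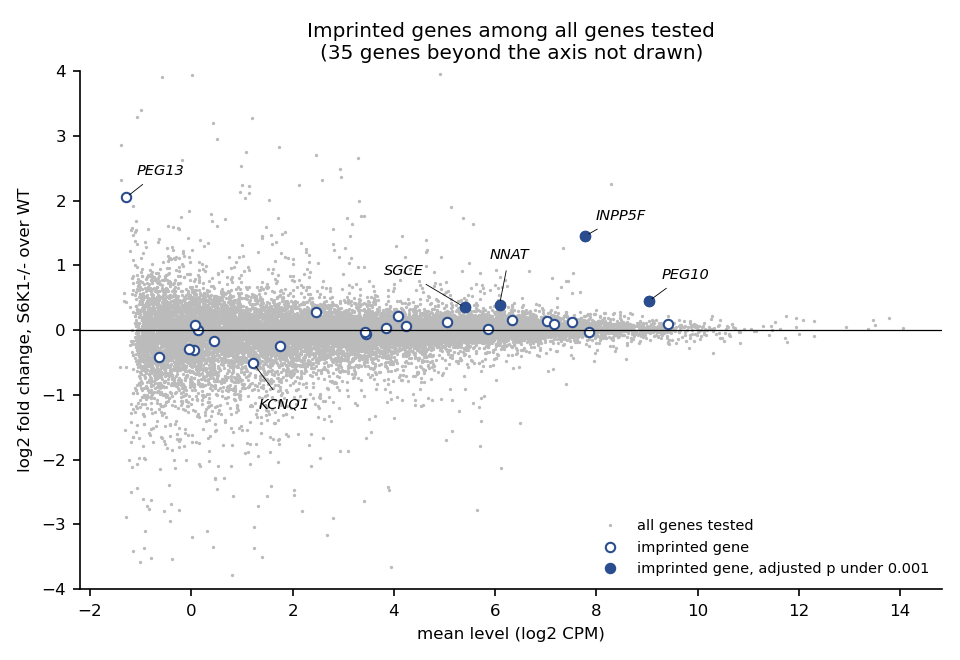
Log2 fold change (S6K1-/- over WT) against mean level (log2 CPM) for all genes tested, in grey, with the 27 imprinted genes as circles, filled at an adjusted p under 0.001; 35 genes beyond the axis are not drawn. INPP5F at 1.45 lies above most of the grey cloud at its level, while PEG10, NNAT and SGCE lie nearer to its upper edge.

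PEG10 and SGCE, the members taken from their cluster, rose as a pair. PEG10, a protein derived from a retrotransposon that is needed for the placenta, lies at chr7:94656325-94669695 on the plus strand. SGCE, the epsilon-sarcoglycan that is mutated in myoclonus-dystonia, lies at chr7:94524204-94656572 on the minus strand, and the ends of the pair overlap by 3.27% of the exonic bases of PEG10. PEG10 had 10928, 10567 and 10417 counts in WT and 14939, 14280 and 12539 in S6K1-/-. The groups did not overlap, and the level rose 1.36-fold from 442 ± 10.9 to 603 ± 30.6 CPM (SD, n = 3; log2 fold change 0.45, SE 0.0447, adjusted p = 5.41e-06). SGCE had 971, 893 and 813 counts in WT and 1192, 1083 and 1000 in S6K1-/-, which in CPM were 39.9, 36.3 and 35 against 50.8, 45.2 and 45.9. The rise of SGCE was 1.28-fold (log2 fold change 0.35, SE 0.0609) and its adjusted p of 0.000991 was just under the threshold. With 1 library left out the call of SGCE held in 1 of 6 fits, that without WT replicate 1, and its adjusted p ranged from 0.000485 to 0.00911.

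The ratio of PEG10 to SGCE counts was 11.3, 11.8 and 12.8 in WT and 12.5, 13.2 and 12.5 in S6K1-/-. The ranges overlapped, and the difference was 0.09 on the log2 scale (exact permutation test over libraries, two-sided, p = 0.3, where 3 libraries against 3 allow no p below 0.1). Of the 3 nearest tested genes, CASD1, a sialic acid acetyltransferase, had a log2 fold change of 0.04 (adjusted p = 0.706). COL1A2, a collagen chain that is also on the mesenchyme list, fell with a log2 fold change of -0.50 (adjusted p = 2.5e-06). PPP1R9A, which is itself imprinted in some tissues, was at 0.21 (adjusted p = 0.0305).

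NNAT, neuronatin, a small membrane protein of developing brain, lies at chr20:37521206-37523690 on the plus strand within BLCAP, whose gene runs the other way at chr20:37492472-37527931. NNAT had 1352, 1534 and 1353 counts in WT and 1774, 1859 and 1702 in S6K1-/-, with all S6K1-/- libraries above all WT libraries. Its level rose 1.31-fold from 58.7 ± 3.46 to 77.1 ± 1.39 CPM (SD, n = 3; log2 fold change 0.39, SE 0.0475, adjusted p = 3.68e-05). BLCAP had 1855, 1867 and 1745 counts in WT and 1879, 2169 and 1827 in S6K1-/-. The means of BLCAP were 75.8 and 84.8 CPM without overlap, and its log2 fold change of 0.16 (SE 0.0471) passed only the threshold of 0.05 (adjusted p = 0.0306). This was lost in 4 of 6 fits with a library left out (without WT replicate 1 or 3, or S6K1-/- replicate 2 or 3), with an adjusted p of up to 0.135. The ratio of NNAT to BLCAP counts was 0.729, 0.822 and 0.775 in WT and 0.944, 0.857 and 0.932 in S6K1-/-, a difference of 0.23 on the log2 scale with no overlap (exact permutation p = 0.1, the smallest possible, and 0.133 after Benjamini-Hochberg adjustment over the 4 pairs compared). Exons of the 2 genes overlap on opposite strands over 6.4% of NNAT, and whether the counting used strand is not given in the sources used here. The 3 nearest other genes tested, MANBAL, SRC and CTNNBL1, did not pass the threshold.

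**Figure D4:**
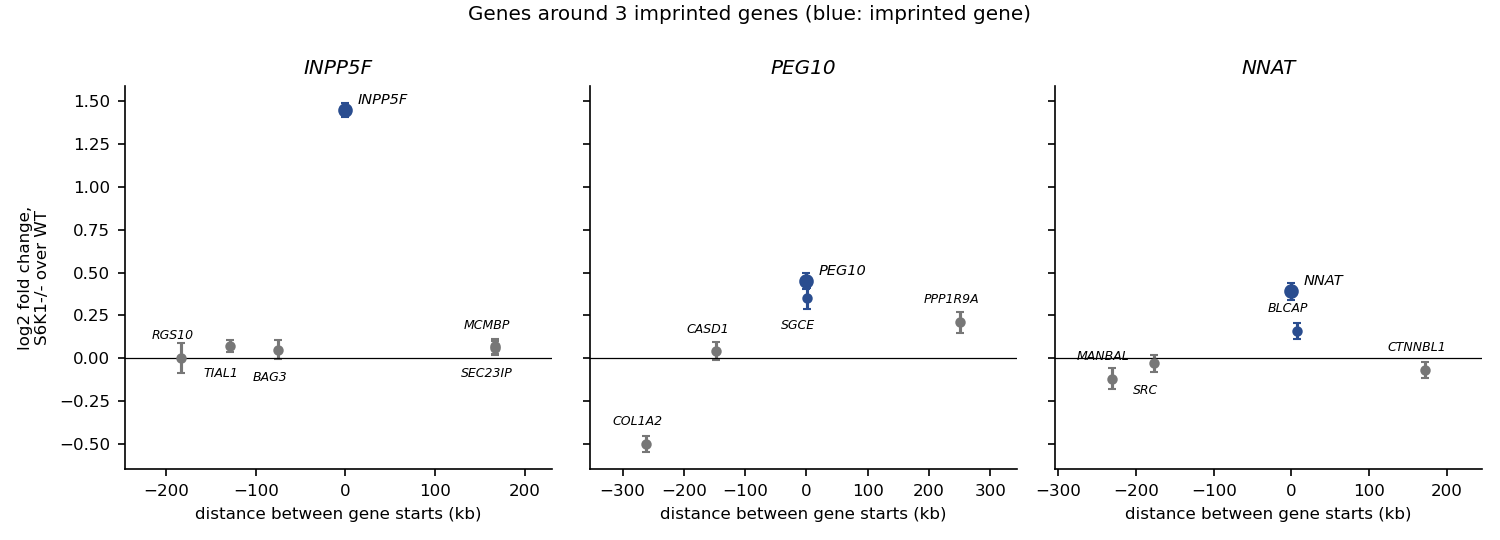
Log2 fold change (S6K1-/- over WT, bars of 1 standard error) of INPP5F, PEG10 and NNAT and of the tested genes within 250 kb, against the distance between gene starts in kb, with imprinted members in blue. INPP5F at 1.45 is flanked by genes between 0.00 and 0.07, PEG10 and SGCE rose together, and COL1A2 (-0.50) lies below 0.

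At the KCNQ1OT1-CDKN1C cluster the paternally expressed antisense RNA and the maternally expressed channel gene had opposite signs, neither past 0.001. KCNQ1OT1, a long noncoding RNA that silences its neighbours in cis, had 394, 363 and 365 counts in WT and 415, 461 and 379 in S6K1-/-, with means of 15.6 and 18.1 CPM (log2 fold change 0.22, SE 0.0693, adjusted p = 0.0469). KCNQ1OT1 passed 0.05 under 3 of 11 other fits, and with a library left out only without WT replicate 1 (adjusted p 0.0499 to 0.175). KCNQ1, a potassium channel subunit, had 74, 58 and 58 counts in WT and 41, 44 and 43 in S6K1-/-, with means of 2.63 and 1.85 CPM (log2 fold change -0.51, SE 0.164, adjusted p = 0.0542). Neither gene overlapped between the groups in CPM. The ratio of their counts was 5.32, 6.26 and 6.29 in WT and 10.1, 10.5 and 8.81 in S6K1-/-, a difference of 0.72 on the log2 scale (exact permutation p = 0.1, adjusted 0.133). KCNQ1OT1 lies antisense within KCNQ1, so without strand some reads could be given to either.

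The other members of the same cluster were low. CDKN1C, the cyclin-dependent kinase inhibitor p57, had 29, 38 and 31 counts in WT and 23, 24 and 36 in S6K1-/-, with overlapping groups (log2 fold change -0.17, SE 0.237, adjusted p = 0.7). SLC22A18, a transporter, had 36, 18 and 22 counts in WT and 20, 23 and 16 in S6K1-/- (log2 fold change -0.30, SE 0.278, adjusted p = 0.542). PHLDA2, a growth restrictor of the placenta, had 1 count in all libraries together. All exonic bases of CDKN1C, SLC22A18 and PHLDA2, and 52.4% of those of KCNQ1, also align to an alternate contig of GRCh38. These were the only members of the 37 with such alignments, and the 4 that rose had none. NAP1L4, a nucleosome assembly gene near PHLDA2 whose exons also align wholly to an alternate contig, had 1194, 498 and 362 counts in WT and 1085, 344 and 1080 in S6K1-/-, with a wide spread within each group. Whether the genome index of the authors held alternate contigs is not given in the sources used here, and its part in the low counts of these members was not tested.

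PEG13, a long noncoding RNA within an intron of TRAPPC9, had 1, 4 and 4 counts in WT and 15, 12 and 10 in S6K1-/-. The groups did not overlap, but PEG13 entered the test only through its counts in S6K1-/-, and 20.8% of its exonic bases are shared with another gene on its strand. Its log2 fold change was 2.05 (SE 0.467, adjusted p = 0.00774), and the ratio of the summed counts, 37 against 9 scaled to library size, was 4.29 with a 95% interval from 2.03 to 10.1 that covers counting error only. TRAPPC9, a subunit of a vesicle tethering complex, had 441, 443 and 449 counts in WT and 457, 468 and 415 in S6K1-/- (log2 fold change 0.07, adjusted p = 0.55).

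The insulin-like growth factor axis had little signal at its ligand. IGF2 had 0, 0 and 1 counts in WT and 0, 2 and 0 in S6K1-/-, and the noncoding H19 had 2, 2 and 3 counts in WT and 1, 1 and 2 in S6K1-/-, both at or under the floor of 3 counts. IGF2R, the receptor that clears IGF2, had 4592, 4031 and 4085 counts in WT and 4638, 4605 and 4095 in S6K1-/-, with overlapping groups in CPM (log2 fold change 0.13, adjusted p = 0.0963). GRB10, an adaptor that binds insulin and IGF receptors and restrains them, had 2978, 3022 and 2954 counts in WT and 3319, 3145 and 2978 in S6K1-/-. The means of GRB10 were 124 and 137 CPM without overlap, and its log2 fold change of 0.14 (SE 0.041, adjusted p = 0.0376) passed only the threshold of 0.05. This was lost in 4 of 6 fits with a library left out (without WT replicate 1 or 2, or S6K1-/- replicate 1 or 3), with an adjusted p of up to 0.179. The GRB10 protein is a known substrate of mTOR signalling, and only its RNA was measured here.

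The DLK1-MEG3 cluster had low counts, with 2 of 5 members tested. The maternally expressed noncoding MEG3 had 0, 1 and 2 counts in WT and 0, 0 and 1 in S6K1-/-, MEG8 had 0 in every library, and RTL1 had at most 2. MEG9 had 27, 23 and 20 counts in WT and 21, 18 and 16 in S6K1-/- (log2 fold change -0.29, SE 0.238, adjusted p = 0.516). DLK1, a transmembrane protein related to NOTCH ligands, had 14, 17 and 15 counts in WT and 11, 9 and 13 in S6K1-/- (log2 fold change -0.41, SE 0.301, adjusted p = 0.439). The ratios of summed counts with their 95% counting intervals were 0.819 (0.565 to 1.18) for MEG9 and 0.748 (0.463 to 1.2) for DLK1, and both intervals include 1.

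The Prader-Willi and Angelman locus had 0 of 5 tested members past either threshold. SNRPN, a spliceosomal protein, had 253, 249 and 273 counts in WT and 235, 286 and 213 in S6K1-/- (log2 fold change -0.02, SE 0.0949), and SNURF, encoded on the same transcripts, had 14, 25 and 29 against 27, 22 and 20. These 2 genes share 43.9% and 52.1% of their exonic bases with genes on their strand, so reads could be lost or split between genes. For SNRPN these include SNHG14, a noncoding RNA of the further imprinted list. SNHG14 had 31064 to 37457 counts per library (log2 fold change -0.04, adjusted p = 0.606). NDN, necdin, had 748, 796 and 745 counts in WT and 813, 833 and 745 in S6K1-/- (log2 fold change 0.12, adjusted p = 0.139), without overlap in CPM. MAGEL2, which acts with necdin family proteins on ubiquitin ligases, had 272, 258 and 265 against 256, 262 and 213 (log2 fold change -0.06, adjusted p = 0.682). UBE3A, the ubiquitin ligase that is maternally expressed in neurons, had 3346, 3494 and 3213 against 3402, 3464 and 3370 without overlap in CPM (log2 fold change 0.09, adjusted p = 0.185). MKRN3 had at most 1 count.

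The remaining clusters had small differences. MEST, an abundant member of the hydrolase fold family, had 5567, 5908 and 5384 counts in WT and 5436, 5527 and 4836 in S6K1-/- with overlapping groups (log2 fold change -0.03, SE 0.0393, adjusted p = 0.642). GNAS, the stimulatory G protein alpha subunit with several imprinted isoforms, had 16037, 16958 and 14931 counts against 16582, 17021 and 15288 without overlap in CPM (log2 fold change 0.09, adjusted p = 0.177). ZNF597, a maternally expressed zinc finger gene, had 107, 126 and 119 counts against 132, 147 and 132 without overlap (log2 fold change 0.28, adjusted p = 0.105). NAP1L5, a nucleosome assembly family member that arose by retroposition, had 81, 99 and 76 counts against 69, 72 and 66, also without overlap (log2 fold change -0.24, adjusted p = 0.28).

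ZDBF2 and L3MBTL1, a chromatin-binding protein, had log2 fold changes of 0.02 and 0.03. PLAGL1, a zinc finger protein that is deregulated in transient neonatal diabetes, had 29, 18 and 26 counts against 22, 25 and 23, a ratio of summed counts of 1 with a 95% counting interval from 0.71 to 1.41. DIRAS3 had at most 2 counts in any library. PEG3 and ZIM2, paternally expressed zinc finger genes that share a start on chromosome 19, had 0 counts in every library. Of the 3 genes tested within 250 kb of ZIM2, ZNF71 lies 148.1 kb away with a log2 fold change of -0.08, and ZNF470 lies 185.6 kb away with -0.42 (adjusted p = 0.00142). ZFP28, a zinc finger gene 217.7 kb from ZIM2 and more than 250 kb from PEG3, had 229, 222 and 221 counts in WT and 4, 4 and 5 in S6K1-/- (log2 fold change -5.59, SE 0.179, adjusted p = 1.24e-11). Over all clusters 76 neighbouring genes within 250 kb were tested, leaving out imprinted neighbours such as PPP1R9A and SLC22A3. Of these, 0 were higher and 5 lower at 0.001 (4 and 7 at 0.05), where 1.42% and 2.54% of all genes were at 0.001 and 5.47% and 8.31% at 0.05. ZFP28 passed the low-count filter only through WT and so had to be lower. MAS1 near IGF2R, higher at 0.05, passed it only through S6K1-/- and so had to be higher. The 76 include the symbols U3 and Y_RNA, which name loci on different chromosomes, so their counts may not be those of a neighbour. Neither was called. Without WT replicate 3 or S6K1-/- replicate 2 the lower neighbours were 3. The lower ones were ZFP28, COL1A2, COBL near GRB10, HERC5 near NAP1L5 and GNG12 near DIRAS3.

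A further list of 58 genes reported as imprinted in some tissue, with 52 in the table and 30 tested, had 0 higher and 3 lower, where 1.42% and 2.54% of all genes were. The lower ones were CTNNA3, an alpha-catenin (228, 195 and 234 counts in WT against 58, 69 and 34; log2 fold change -1.97, adjusted p = 6.47e-07), NTM, a neuronal adhesion protein (-0.58, adjusted p = 6.25e-05), and CALCR, the calcitonin receptor (-1.82, adjusted p = 0.000885, from at most 27 counts). With 5, 8 and 6 counts in S6K1-/-, CALCR passed the low-count filter only through WT and so had to be lower. CTNNA3 and NTM were called under each of the 11 other fits. CALCR was called under 2 of them, was not tested with at least 10 counts in every library, and had an adjusted p of 0.00222 to 0.00771 with any library left out, so that 2 genes were then lower. The next by adjusted p were SLC22A3 at 0.38 (0.014) and TFPI2 at -0.41 (0.0173). The median log2 fold change of this list was 0.00.

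Of 26 genes that set, read or maintain imprints, 18 were tested, of which 1 was higher and 2 lower, where 1.42% and 2.54% of all genes were. UHRF1, which brings DNMT1 to newly replicated DNA, had 757, 770 and 693 counts in WT and 974, 973 and 843 in S6K1-/- (log2 fold change 0.39, SE 0.0524, adjusted p = 0.000104), a call that was lost without S6K1-/- replicate 1. SETDB1, the histone H3 lysine methyltransferase recruited by TRIM28, had 1556, 1464 and 1458 against 1037, 1068 and 992 (log2 fold change -0.47, SE 0.0456, adjusted p = 3.78e-06). DNMT3B, a de novo DNA methyltransferase, had 34830, 34421 and 32650 against 27268, 26076 and 23269 (log2 fold change -0.35, SE 0.0438, adjusted p = 4.88e-05). All 3 were without overlap between the groups. TET1, which oxidises methylcytosine, and SMCHD1 passed only at 0.05, with log2 fold changes of 0.24 and 0.20. ZFP57 was listed at 0 in every library. EHMT2, a broadly expressed histone methyltransferase gene that also lies in the MHC region of chromosome 6, had 0, 0 and 6 counts in WT and 0, 1 and 1 in S6K1-/-, and all exonic bases of both align to alternate contigs, so the 0 of ZFP57 cannot be read as absence of its RNA. ZNF445 (0.13), TRIM28 (-0.03) and DNMT1 (0.06) did not pass the threshold. Methylation itself was not measured in these libraries, and whether these genes move the members was not tested.

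INPP5F, PEG10 and NNAT were called at 0.001 under each of the 11 other fits run, 6 of which left out a library, whereas SGCE was called under 5 of the 11.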

How the data were processed

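The series part used here holds bulk RNA sequencing of 3 WT and 3 S6K1-/- H7 hESC libraries. The deposited values are raw counts per gene symbol without normalization. Per the labels and methods, the authors prepared stranded poly(A) libraries, trimmed the reads with Trim Galore 0.6.5, aligned them to GRCh38 with Bowtie2 2.4.5, which does not align across splice junctions, and counted with featureCounts. The annotation release and strand setting are not given in the sources used here. Reads over a junction may therefore be missing from short-exon genes. The authors also deposited their DESeq2 1.37.4 comparison, with fold changes and p-values, which was not used.

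Counts of all genes were fitted with edgeR 4.0.16 in R 4.3.3 (filterByExpr, TMM normalization, glmQLFit, glmQLFTest, genotype only), with Benjamini-Hochberg adjustment over 19521 genes and the threshold of 0.001 stated in the methods. CPM values use TMM-scaled library sizes. On simulated counts of this comparison with 19271 genes the fit called 78.5% of 200 genes changed by 1 on the log2 scale and 0 others. Alternatives were DESeq2 size factors, the Wald test of DESeq2 1.42.0, no low-count filter, a minimum of 10 counts per library, a block on replicate number, an adjusted p under 0.05, and each library left out. Floors (3 counts) and 95% intervals cover counting error only.

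Symbols were matched to GENCODE 44 (GRCh38), 37105 of 61155, for coordinates, exonic lengths and neighbours within 250 kb, and gene sequences were aligned to the alternate contigs with minimap2 2.31 (alignments of at least 1000 bases). Counts of neighbours leave out the members and the genes of the further imprinted list. Members and lists were chosen with earlier results of these data known. Members past 0.001, or without overlap and with at least 10 counts in a group, are given per library, and other lists by their smallest adjusted p.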

Additional observations from a re-analysis of the deposited data

How the results depend on the processing

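INPP5F, PEG10 and NNAT kept their direction and their call under all 11 alternative fits (those other than the threshold of 0.05), and SGCE kept its direction. At an adjusted p under 0.05 there were 8 members higher, with 1067 of all genes higher and 1622 lower. Other imprinted genes were 3 higher and 6 lower, and 3 imprint maintenance genes and 4 neighbours were higher, with imprinted neighbours left out. Among these, PEG13 and MAS1 passed the filter only through S6K1-/-, and CALCR only through WT. Without the filter on low counts 591 genes were higher and 982 lower, with 3 maintenance genes and 1 neighbour higher, and PEG13 passed 0.001 (adjusted p = 0.000739). The Wald test of DESeq2 called 2 maintenance genes higher.

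The same numbers do not pair the libraries (correlations of deviations 0.018, 0.00174 and 0.0316). With the replicate block the member median was 0.09, as with DESeq2 size factors and the Wald test, and PLAGL1 changed sign to 0.01 in these 3 fits. The block changed the call of no member at 0.001. Calls at 0.05 were less stable. KCNQ1OT1 lost its call with the block (adjusted p = 0.0644), the Wald test (0.16), no filter (0.0519) and in 5 of 6 fits with a library left out, GRB10 and BLCAP in 4 of 6 such fits each, and PEG13 with the Wald test (0.0561).

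With 1 library left out, 175 to 235 of all genes were higher (lowest without S6K1-/- replicate 1, then 179 without replicate 2) and 313 to 445 lower (lowest without S6K1-/- replicate 3). Maintenance genes higher were 0 to 1, neighbours lower 3 to 5, members higher 3 to 4, and the member median was 0.06 to 0.09. SLC22A18 changed sign only without WT replicate 1 (range -0.51 to 0.03). Members near 0 changed sign, with ranges of -0.19 to 0.14 for PLAGL1, -0.12 to 0.05 for SNRPN, -0.17 to 0.33 for SNURF and -0.02 to 0.06 for ZDBF2. None of these was called in any fit. The cause of these changes was not tested.

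Low counts limit the 10 members at or under 3 counts and MEG9, DLK1, CDKN1C, SLC22A18, PLAGL1, SNURF and PEG13, whose standard errors were at least 0.237. The part of depth, alternate contigs or shared exons in these low counts was not tested.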
